A study of Mus musculus with 26 samples.

Results

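The 3 arrays hybridised with RNA from deathless S49 cells after 6 h of the cyclic AMP analogue 8-CPT-cAMP were compared with the 4 arrays of untreated deathless S49 cells. S49 is an established mouse T lymphoma line that grows in suspension and carries traits of an immature thymocyte. The line labelled D-, for deathless, is a variant of it, and the parental line is labelled WT. The whole series held 26 arrays in 8 groups, with 4 untreated arrays and 3 arrays each at 2, 6 and 24 h for either line, and the D- 2 h and 24 h groups and the WT untreated and 6 h groups are used below to place the D- 6 h response. The labels give 1 culture condition (medium with heat-inactivated horse serum) and 1 dose, written as 100 mM, for all treated groups, and that unit may be a slip for a smaller one. Titles of the treated WT samples call them untreated beside a time, whereas their source and description give the treatment, which was used here. All D- arrays come from 1 cell line, and the labels tell neither its mutation nor its derivation, nor whether it is 1 clone. The labels call the replicates biological without describing separate cultures, so the spread behind each p-value is that of these arrays and can be in part technical.

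Genes entered the comparison when log2 of the deposited intensity was 5 or more on at least 3 of the 26 arrays. That kept 12724 of 22626 probe sets, which named 7435 of the 12393 genes with a probe set of their own, each read here on its brightest probe set. Of the 12724, 12133 reached that level on at least 3 of the 7 arrays compared here and 240 on none of them. Every value below is on the log2 scale of GCRMA intensities, where 1 unit is a 2-fold difference, and a change is the 6 h mean minus the untreated mean, ± the standard error of the fitted difference (n = 3 against 4 arrays). A gene is said to have risen or fallen where limma gave a Benjamini-Hochberg adjusted p under 0.05 over all 12724 probe sets. Signals under log2 5 are close to the array background, so where 1 group lay under it the change is given as a lower limit, counted from 5, and a difference between the lines that involves such a group is given no size here.

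Cyclic AMP binds the regulatory subunits of protein kinase A (PKA) and frees its catalytic subunits, which phosphorylate CREB and related factors at the cyclic AMP response element (CRE) of target promoters. The targets include repressors, phosphatases and phosphodiesterases that bring the signal down again. In S49 cells cyclic AMP is known to stop the cycle in G1 and then to kill the WT line, whereas the deathless line arrests and survives. Immature thymocytes rearrange their receptor genes with RAG proteins and are steered by NOTCH and pre-T-cell-receptor signals.

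The 7 arrays had similar distributions, with medians of 5.40 to 5.47 and 11936 to 12076 probe sets at or above log2 5 on each array. Replicates correlated with r of 0.986 to 0.995 across probe sets, and the 3' to 5' difference of the Gapdh control probes ran from -0.153 to 0.0491 in untreated arrays and from -0.13 to -0.0241 at 6 h. The first axis of the deviations from the group means, with 38.8% of their variance, set untreated replicates 1 and 2 and 6 h replicate 1 apart from untreated replicates 3 and 4 and 6 h replicates 2 and 3. The labels name no batch for this split, so changes were also taken within each side. The side with 6 h replicate 1 sets 1 array against 2, too few to count calls. Of 206 named genes called over all 7 arrays, 195 passed on the other side. None changed direction on either side, but they had been picked by calls on these same arrays. Where the groups do not overlap, no subset of arrays could reverse the direction. Of 10 T cell markers 8 were at or above log2 5 in both groups, with Cd5 and Cd247 under it, and the summed T cell marker intensity was 25600 to 30000 untreated and 17800 to 20900 at 6 h. Only 3 of 9 B cell markers reached that level, with Cd79b, Ms4a1, Pax5 and Ebf1 under it, and their sum of 350 to 1510 untreated and 229 to 277 at 6 h followed Ighm alone (mean 9.09, then 5.89), since Cd22 went from 5.91 to 6.53 and Cd79a from 5.35 to 5.09. Myeloid (3 of 10 untreated), erythroid (1 of 5) and stromal (1 of 7) markers were sparse and the ranges of their sums overlapped between groups, at 196 to 230 against 193 to 212, 77.6 to 95.7 against 78.7 to 83.3 and 85.9 to 106 against 88.3 to 113. In RNA from a whole culture, fewer cells of a type and less RNA per cell cannot be told apart, and the part of these marker shifts in the changes below was not tested.

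After 6 h, 3863 of 12724 probe sets (30.4%) had changed, 1963 of them (15.4%) higher and 1900 (14.9%) lower. Counted by gene, 1204 of 7435 genes (16.2%) rose and 1161 (15.6%) fell, and the median change over all genes was -0.0182. Counts of list members at 6 h are to be read against these shares. Large changes were more often rises. At least 2-fold rises were found for 341 genes and falls of that size for 214, at least 4-fold changes for 79 against 25, and at least 16-fold changes for 13 against 5. These counts use fitted changes, and 87 of the called genes had 1 group mean under log2 5. For those genes, Crem and Il10 among them, the size is known only as a limit. The 4 untreated and 3 treated arrays did not overlap at all for 3137 genes, of which 2260 were among the 2365 called. Actb, the cytoplasmic actin used as a reference gene, read 12.57, 12.44, 12.68 and 12.75 untreated and 12.78, 12.74 and 12.94 at 6 h, a difference of 0.21 ± 0.23 that did not pass (adjusted p = 0.542).

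**Figure D1:**
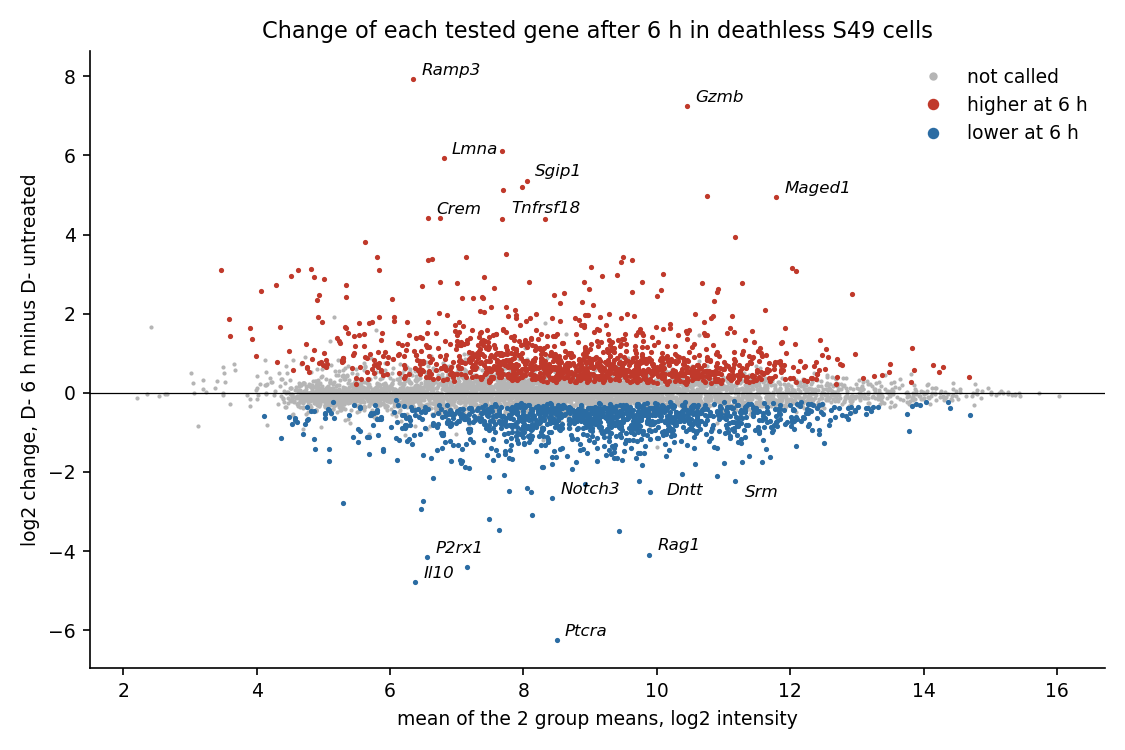
Each point is 1 of 7435 genes, with the mean of the untreated and 6 h group means (log2 intensity) on the horizontal axis and the fitted log2 change at 6 h on the vertical axis; red points rose and blue points fell at a limma adjusted p under 0.05. The 1204 rises reach further from 0 than the 1161 falls, and fitted changes of genes with 1 mean under log2 5, such as Ramp3 and Il10, are not the limits given in the text.

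Known cyclic AMP targets rose in deathless cells, among them transcription factors and feedback genes. In the list of CREB targets and immediate-early genes, 8 of 16 tested genes rose and 1 fell, with a median of 0.851. Crem and Fos rose from levels under background. Crem, whose short product ICER represses CRE promoters, read 4.59, 4.15, 4.36 and 4.31 untreated and 8.34, 8.95 and 9.03 at 6 h, at least 3.77 higher (adjusted p = 9.6e-07). Fos, a subunit of the AP-1 factor, read 4.63, 4.54, 4.32 and 2.86 and then 7.54, 7.58 and 7.42, at least 2.51 higher. Nr4a1, an orphan nuclear receptor induced by many signals in T cells, read 7.13, 7.12, 7.78 and 7.64 and 10.19, 10.87 and 10.73, a change of 3.18 ± 0.29. In all 3 genes every treated array lay above every untreated one. Per1, a clock gene with a CREB site, had overlapping groups, with 6.23, 6.36, 6.54 and 6.99 untreated and 6.97, 8.03 and 8.33 treated, although its rise of 1.25 ± 0.31 passed; within the side of 6 h replicate 1 the change was 0.68. Sik1, a kinase that holds back CREB coactivators, rose by 1.72 ± 0.42, but without 6 h replicate 3 the change was 1.14 and did not pass (adjusted p = 0.0514).

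Feedback genes rose with them. Rgs2, a regulator that shortens G protein signalling, had the largest change of the feedback lists, from 5.56, 5.26, 5.38 and 5.71 to 9.74, 9.82 and 10.06 (4.4 ± 0.33, adjusted p = 3.47e-09). In the list of phosphodiesterases and RGS proteins, 4 of 10 tested genes rose and none fell, with a median of 0.255. Pde4b, which degrades cyclic AMP, read 4.9, 5.09, 5.24 and 4.84 and 6.21, 5.66 and 6.71, a rise of 1.18 ± 0.34 that was 0.92 without 6 h replicate 3 and then did not pass (adjusted p = 0.0914). Of 9 tested dual-specificity phosphatases, several of which switch off MAP kinases, 3 rose and 2 fell. Dusp1 read 5.98, 6.21, 5.7 and 5.9 untreated and 8.33, 9.37 and 8.92 at 6 h (2.92 ± 0.42), and Dusp10, which acts on JNK and p38, read 6.99, 7.8, 8.29 and 8.04 and 10.59, 11.62 and 11.45 (3.44 ± 0.31). The groups of both genes stood more than 2 units apart.

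Among genes of cyclic AMP production and PKA, 7 of 21 rose and 2 fell, with a median of 0.251, a share of rises of 33.3% against 16.2% of all genes. Prkar1a, the regulatory subunit that holds PKA inactive, read 10.8, 10.64, 10.88 and 10.94 and 11.99, 12.19 and 12.12, a rise of 1.28 ± 0.10 (adjusted p = 7.48e-09) with little spread in either group. Prkaca, a catalytic subunit, was at the edge of the threshold, at 0.42 ± 0.16 (adjusted p = 0.0494), and did not pass under 9 of 19 other settings, among them without untreated replicate 1 or 2 or 6 h replicate 2 or 3, with adjusted p up to 0.28. The inhibitory G protein subunits Gnai2 and Gnai3 rose by 0.61 ± 0.11 and 0.70 ± 0.19, and Arrb2, a beta-arrestin that desensitises receptors, by 1.16 ± 0.17. Akap1, which anchors PKA at mitochondria, fell by 0.89 ± 0.19.

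The promoters of 4 genes are printed to show the element through which CREB is known to act, 3 from genes that rose and 1 from a gene that fell. They are RefSeq sequences of build GRCm38.p6, read 5' to 3' on the gene's strand from the 250 bases before the start site, with the 8 letters of the full CRE, TGACGTCA, in capitals.
Dusp1, chr17:26508582-26508641, minus strand: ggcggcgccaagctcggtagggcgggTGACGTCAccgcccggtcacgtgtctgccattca
Prkar1a, chr11:109650874-109650933, plus strand: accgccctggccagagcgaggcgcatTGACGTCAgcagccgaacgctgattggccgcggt
Zap70, chr1:36761754-36761797, plus strand: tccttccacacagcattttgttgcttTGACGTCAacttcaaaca
Ppan, chr9:20888114-20888173, plus strand: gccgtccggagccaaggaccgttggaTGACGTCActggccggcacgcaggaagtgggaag
The element began 143 bases before the start site in Dusp1, 49 in Prkar1a, 18 in Zap70, a kinase of T-cell-receptor signalling that rose by 0.63 ± 0.082, and 35 in Ppan, a ribosome biogenesis factor that fell by 1.5 ± 0.27. The element reads the same on both strands. It stood in the 250 upstream bases of 40 of 991 genes that rose and had a promoter in the table (4.04%), 21 of 956 that fell (2.20%), 124 of 4162 that were not called (2.98%), 185 of 6109 of all tested (3.03%) and 478 of all 27025 genes with a promoter in the table (1.77%). Among genes that rose at least 2-fold it stood in 9 of 281 (3.2%), close to the share of all tested genes. The shorter site TGACG or CGTCA, searched on both strands and contained in the full element, was far commoner, at 36.4% of genes that rose, 33.1% of those that rose at least 2-fold, 32.1% of those that fell and 32.7% of all tested. The E-box CACGTG, which MYC can bind, stood in 9.0% of genes that rose, 13.0% of those that fell and 10.5% of all tested genes. These shares are descriptions, and a match is not a shown binding site.

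Several large rises belonged to genes at or near background in untreated deathless cells. Ramp3, which alters the ligand choice of calcitonin-family receptors coupled to cyclic AMP, read 2.24, 2.65, 2.19 and 2.45 untreated and 10.81, 10.26 and 9.89 at 6 h, at least 5.32 higher (adjusted p = 1.78e-11). Tceal1, an elongation-factor-like protein, read 4.34, 4.18, 5.3 and 4.71 and 11.22, 10.57 and 10.42, at least 5.74 higher. Lmna, which encodes the nuclear lamins A and C, read 4.0, 4.0, 3.34 and 4.03 and 10.01, 9.74 and 9.55, at least 4.77 higher. Its other, dimmer probe set rose by less, from a mean of 4.99 to 6.88 (adjusted p = 4.3e-06). On the brightest probe sets of these genes untreated arrays lay at or under the background level, save 1 Tceal1 array. All treated arrays lay far above it there.

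Genes with untreated means above log2 5 also rose by large steps, though Sgip1 (mean 5.37) and Tnfrsf18 (5.13) were near background before treatment. Sgip1, an endocytic adaptor, went from 5.41, 4.99, 5.41 and 5.66 to 10.66, 10.73 and 10.8 (5.36 ± 0.29). Maged1, a MAGE-family adaptor, went from 9.38, 9.25, 9.32 and 9.29 to 13.88, 14.44 and 14.48 (4.96 ± 0.28), and was among the brighter genes of the treated arrays. Wif1, a secreted WNT inhibitor, went from 8.2, 8.54, 7.78 and 8.5 to 13.15, 13.18 and 13.38 (4.98 ± 0.28). Replicates of these 3 genes differed by less than 1 unit, against steps of about 5. Tnfrsf18, the T cell co-stimulatory receptor GITR, rose by 5.13 ± 0.42, the transcription factor Olig3 by 4.4 ± 0.31 and the drug-efflux pump Abcb1a by 3.52 ± 0.19.

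Some rises came with wide spread between replicates. Gzmb, the granule protease granzyme B, read 10.91, 4.46, 5.92 and 6.0 untreated and 15.19, 13.77 and 13.25 at 6 h, a change of 7.25 ± 1.07 (adjusted p = 2.59e-05), with untreated replicate 1 several units above the others and still below every treated array. Cd53, a tetraspanin of lymphocytes, showed the same untreated replicate apart, at 7.67, 4.69, 4.7 and 4.46, with 11.46, 10.51 and 9.75 at 6 h (5.19 ± 0.78). Of 7 tested genes of the cytotoxic granule list 4 rose and none fell, with a median of 1.01; Srgn, the proteoglycan that packs granules, rose by 2.08 ± 0.21. Amot, an angiomotin, rose by 3.94 ± 0.71 on its brightest probe set, whereas its other probe sets gave 2.18 and -0.02.

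**Figure D2:**
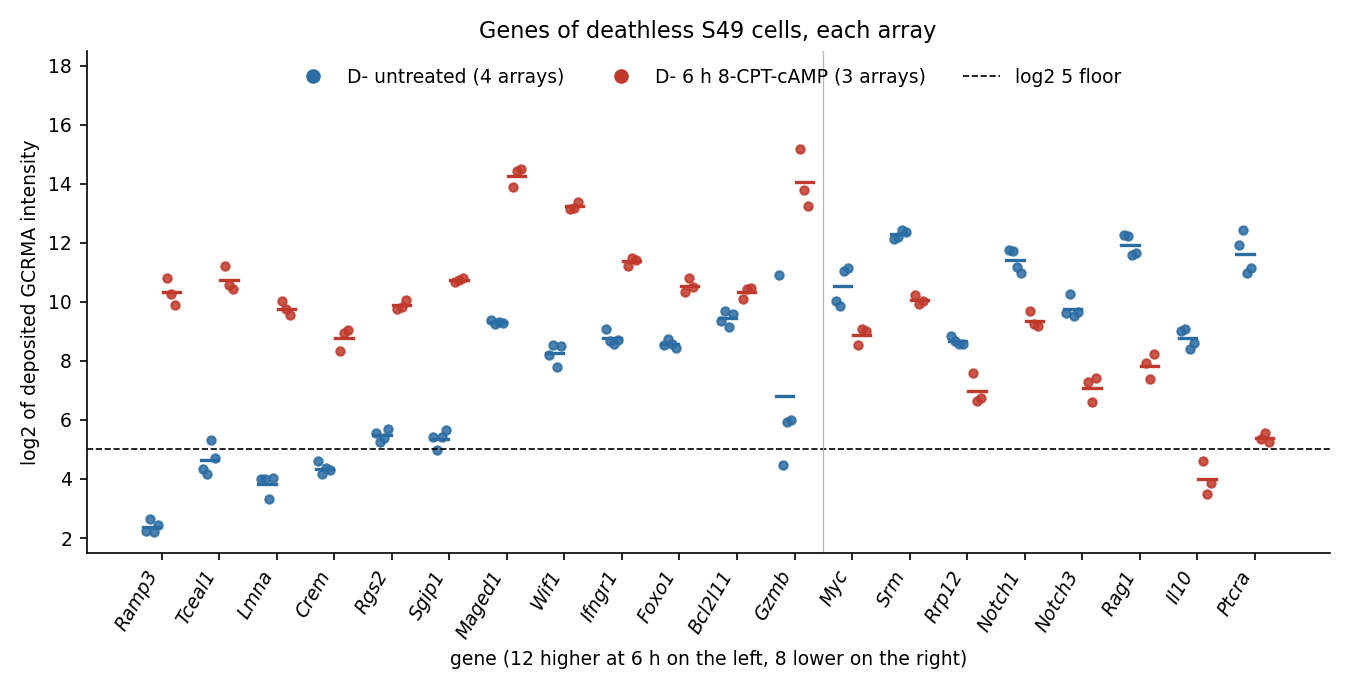
Points are single arrays and show log2 intensity of 20 genes in the 4 untreated and 3 treated (6 h) D- arrays, with the genes that rose first and those that fell after them; short bars are group means and the dashed line is log2 5. In each gene shown the treated arrays lie apart from the untreated ones, and the untreated Gzmb arrays spread from 4.46 to 10.9.

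Genes of receptor rearrangement and pre-T-cell-receptor signalling had some of the deepest falls. Ptcra, the pre-T-cell-receptor alpha chain, had the deepest measured fall, from 11.93, 12.42, 10.99 and 11.15 to 5.35, 5.55 and 5.24, a change of -6.24 ± 0.47 (adjusted p = 3.57e-09). Rag1, which cuts receptor genes together with Rag2, went from 12.25, 12.24, 11.58 and 11.65 to 7.92, 7.39 and 8.22 (-4.09 ± 0.27), and Rag2 from 9.2, 9.1, 8.54 and 9.24 to 6.51, 6.57 and 6.54 (-2.48 ± 0.27). Dntt, which adds bases at the joins, went from 11.91, 12.07, 12.06 and 11.75 to 9.5, 9.92 and 10.12 (-2.1 ± 0.21). In none of the 4 did the groups overlap.

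Both NOTCH receptors of the list fell. Notch1, which commits progenitors to the T lineage, went from 11.77, 11.73, 11.19 and 10.97 to 9.67, 9.24 and 9.16 (-2.06 ± 0.34), and Notch3 from 9.61, 10.25, 9.52 and 9.66 to 7.27, 6.6 and 7.41 (-2.67 ± 0.26). Within the same list, however, as many genes rose as fell: 8 of 22 in either direction, with a median of -0.014. Tox, a chromatin factor of thymocyte selection, rose from 6.02, 5.17, 5.16 and 5.04 to 7.76, 8.34 and 8.39 (2.81 ± 0.43), and Id2, an inhibitor of E proteins, from 9.79, 9.66, 9.62 and 9.48 to 12.68, 12.02 and 11.83 (2.54 ± 0.28). The median of the list thus hides large changes in either direction.

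Components of the T-cell receptor and its signalling had smaller changes. Of 22 tested genes 2 rose and 5 fell, with a median of 0.0495. The adaptor Lat fell by 0.83 ± 0.19 and the adhesion receptor Cd2 by 1.05 ± 0.30. Zap70, named above for its promoter, read 10.6, 10.62, 10.66 and 10.48 and 11.14, 11.23 and 11.29. Its other, dimmer probe set was at 0.07 and did not pass (adjusted p = 0.808). Nfatc1, a calcium-activated factor, rose by 0.80 ± 0.21. Thy1, a surface marker of thymocytes, fell by 0.80 ± 0.20. Il10, an inhibitory cytokine, went from 9.0, 9.08, 8.42 and 8.61 to 4.62, 3.48 and 3.85, all 3 treated arrays under the background level, and fell by at least 3.77 (adjusted p = 3.16e-08). Other deep falls were those of Zdhhc14, a palmitoyl transferase, by 3.5 ± 0.21, of H2-T3, a thymus leukaemia antigen, by 3.47 ± 0.34, of the purinergic channel P2rx1 by at least 3.63 and of Rgl3, a RAS-family exchange factor, by at least 4.36. Probe sets of Zdhhc14 ranged from -3.51 to -0.27. Ighm, an immunoglobulin heavy chain gene, fell by 3.2 ± 0.71 on its brightest probe set, with its probe sets ranging from -6.38 to -0.08 and a change of -1.78 within the side of 6 h replicate 1.

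Ribosome biogenesis genes fell almost throughout. Of 43 ribosome biogenesis genes tested 39 fell (90.7%, against 15.6% of all genes) and none rose, with a median of -1.01. Myc, a factor known to drive these genes, went from 10.03, 9.87, 11.04 and 11.14 to 8.54, 9.06 and 9.01 (-1.65 ± 0.30, adjusted p = 0.000242). Srm, the spermidine synthase, went from 12.11, 12.21, 12.44 and 12.36 to 10.22, 9.93 and 10.03 (-2.22 ± 0.30). Rrp12, which helps export ribosomal subunits, went from 8.84, 8.68, 8.57 and 8.59 to 7.58, 6.64 and 6.75 (-1.68 ± 0.27). Among the others, Ppan went from 9.99, 10.2, 10.21 and 10.03 to 8.99, 8.56 and 8.27 and Polr1a, the largest subunit of RNA polymerase I, from 9.16, 9.26, 9.13 and 9.17 to 8.03, 7.59 and 7.55 (-1.46 ± 0.24), with no overlap between groups in any of these 5 genes. The other Polr1a probe set was at -0.38 and did not pass (adjusted p = 0.13). Taken within the side of untreated replicates 1 and 2 and 6 h replicate 1 the list's median was -0.825. Within the other side it was -1.12 and 39 genes passed.

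Structural ribosomal proteins moved little in size. Of 28 tested 3 fell and none rose, with a median of -0.052, and 8 fell when all probe sets of a gene were averaged (median -0.0887). The proteasome list had 1 of 30 higher, none lower (3 lower on the averages) and a median of -0.0618. In the MYC network only Myc itself passed, lower, of 9 genes tested; Mxd4, a MYC antagonist, was at 0.45 ± 0.26 and did not pass (adjusted p = 0.218), though it passed in 4 of the other settings, with adjusted p of 0.0298 to 0.0433.

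Supply genes for protein synthesis also went down. Of 19 aminoacyl-tRNA synthetases 10 fell and none rose, with a median of -0.386; Iars and Yars, which charge isoleucine and tyrosine tRNAs, fell by 1.06 ± 0.17 and 1.03 ± 0.14. In polyamine, serine and asparagine synthesis 7 of 15 fell and 1 rose, with a median of -0.6. The serine hydroxymethyltransferases Shmt2 and Shmt1 fell by 1.6 ± 0.25 and 1.3 ± 0.16, and the gene that rose was Sat1, which breaks polyamines down, at 1.56 ± 0.28. Of 10 amino acid transporters 4 fell and none rose; the glutamine carrier Slc1a5 fell by 1.44 ± 0.14.

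Genes of S phase entry and DNA replication fell, whereas few of mitosis passed the test. In the list of G1 cyclins, inhibitors and E2F factors 3 of 21 rose and 7 fell, with a median of -0.149. Ccne1, the cyclin that drives entry into S phase, went from 10.37, 9.9, 10.53 and 10.52 to 8.8, 8.54 and 8.56 (-1.69 ± 0.22), and E2f1 fell by 1.01 ± 0.13. Cdkn1b, the inhibitor p27, went the other way, from 8.83, 9.33, 9.23 and 9.17 to 10.03, 10.7 and 10.62 (1.31 ± 0.30). The D cyclins Ccnd2 and Ccnd3 did not pass, with Ccnd3 at -0.033 ± 0.20 (adjusted p = 0.924), of either sign in other settings, and Ccnd2 with its treated mean under background.

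Of 44 DNA replication genes 20 fell and 1 rose; the median was -0.438. Ung, the uracil glycosylase active at replication forks, went from 10.29, 10.59, 9.67 and 9.76 to 8.1, 7.52 and 7.7 (-2.31 ± 0.48); Gins1 and Mcm10, parts of the replicative machinery, fell by 1.27 ± 0.31 and 1.0 ± 0.22. The side of 6 h replicate 1 holds 1 treated array, so calls within it are not counted here. Among 45 mitosis genes 3 rose and 1 fell, with a median of 0.132: the spindle checkpoint kinase Ttk rose by 0.86 ± 0.20, the condensin subunit Smc4 by 0.70 ± 0.14 and the phosphatase Cdc25b by 0.48 ± 0.12, and the checkpoint kinase Bub1b fell by 0.70 ± 0.19.

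Of 21 tested death genes 6 rose (28.6%) and 3 fell (14.3%), with a median of 0.124. Of 16 survival genes 3 rose and 3 fell (18.8% each), with a median of 0.24, shares close to the 16.2% and 15.6% of all genes. With all probe sets of a gene averaged, 5 death genes and 1 survival gene fell. Bcl2l11, which encodes BIM, the BH3-only protein through which cyclic AMP is known to kill WT S49 cells, went from 9.34, 9.69, 9.16 and 9.58 to 10.11, 10.42 and 10.45, a rise of 0.88 ± 0.22 (adjusted p = 0.00383) with no overlap. Bid, another BH3-only protein, went from 10.38, 10.52, 10.77 and 10.59 to 9.5, 9.59 and 9.66 (-0.98 ± 0.14). Pdcd4, a translation inhibitor linked to cell death, rose by 1.59 ± 0.24 and the initiator caspase Casp8 by 0.73 ± 0.12. Its inhibitor Cflar rose by 0.86 ± 0.19, whereas Bcl2 and Mcl1, which bind BIM, were at 0.23 ± 0.15 and 0.24 ± 0.15 and did not pass (adjusted p = 0.298 and 0.253). For Mcl1 this depended on the reading: it was 0.31 with the replicate number as a block (adjusted p = 0.0369), 1 of its 6 probe sets rose (0.51, adjusted p = 0.00263), and it was 0.14 without untreated replicate 2 and 0.37 without 6 h replicate 1. Bcl2 was 0.14 without untreated replicate 2 or 6 h replicate 1. Bcl2l1, a BCL2 relative that encodes BCL-XL, rose by 0.32 (adjusted p = 0.0422) but did not pass under 12 of 19 other settings. Among 14 p53 targets 2 rose and 3 fell, and members of 1 family went apart, with Gadd45a up by 1.72 ± 0.27 and Gadd45b down, at -1.65 ± 0.29.

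FoxO and glucocorticoid-linked genes rose. Foxo1, a factor that PI3 kinase signalling keeps out of the nucleus, went from 8.52, 8.74, 8.55 and 8.45 to 10.32, 10.81 and 10.51 (1.98 ± 0.20), Foxo3 rose by 0.78 ± 0.17 and Klf2, a quiescence factor of T cells, by 1.4 ± 0.31. These 3 were the rises among 11 Kruppel-like and FoxO factors, none of which fell. Of 16 glucocorticoid-responsive genes 11 rose and 1 fell, with a median of 1.12, the highest median of the 32 lists. Sgk1, a kinase induced by steroids, rose by 2.99 ± 0.34, Ddit4, which restrains mTORC1, by 1.9 ± 0.32, and Tsc22d3, the leucine zipper GILZ, by 1.46 ± 0.19. No steroid is named in the labels beyond what the serum may hold, and several of these genes are also known to respond to cyclic AMP. What raised them was not tested. The median of the 16 was 0.838 within the side of 6 h replicate 1 and 1.29 within the other side, where 11 rose. Nr3c1, the glucocorticoid receptor itself, rose by 0.81 ± 0.24, and the call was lost without 6 h replicate 2 (adjusted p = 0.0697) or 3 (0.0587).

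Many cytokine receptor genes rose. Of 24 tested cytokine receptor and JAK-STAT genes 12 rose and 2 fell, with a median of 0.458. Both chains of the interferon gamma receptor rose: Ifngr1 went from 9.08, 8.67, 8.58 and 8.71 to 11.22, 11.49 and 11.4 (2.61 ± 0.19, adjusted p = 2.22e-09) and Ifngr2 rose by 2.4 ± 0.39. The interferon alpha receptor chain Ifnar1 rose by 1.81 ± 0.18, the shared chain Il10rb by 1.35 ± 0.16 and the receptor-associated kinase Jak2 by 1.96 ± 0.20. Socs3, a feedback inhibitor of cytokine signalling, fell by 1.76 ± 0.35.

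Of 27 interferon-inducible genes 10 rose and 1 fell, with a median of 0.46. Irf8, a factor of the interferon pathway, went from 7.1, 7.67, 7.89 and 7.36 to 10.42, 10.3 and 10.22 (2.81 ± 0.35). Gbp3, an interferon-induced GTPase, went from 5.25, 5.21, 4.95 and 5.14 to 8.76, 7.88 and 6.87 (2.71 ± 0.40), with the treated arrays spread over almost 2 units. Igtp, a GTPase of the same response, rose by 2.26 ± 0.58, the peptide-loading chaperone Tapbp by 1.5 ± 0.24 and the antiviral GTPase Mx1 by 1.25 ± 0.24. Of 14 NF-kB genes 2 rose (14.3%, close to the 16.2% of all genes) and none fell. Chemokine receptor, egress and adhesion genes showed 4 rises (28.6%) and 2 falls (14.3%, close to the 15.6% of all genes) among 14. The integrin chain Itgb2 rose by 1.23 ± 0.13 and Adgre5, the adhesion receptor CD97, fell by 0.99 ± 0.15.

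Metabolic and stress genes changed in both directions. Of 22 glucose uptake and glycolysis genes 6 rose (27.3%, against 16.2% of all genes) and 3 fell (13.6%, against 15.6%), with a median of 0.135. The glucose carrier Slc2a3 rose by 2.81 ± 0.31 and the lactate carrier Slc16a1 fell by 0.80 ± 0.17. Cholesterol genes showed 6 rises and 2 falls among 22, with the demethylase Cyp51 at 1.53 ± 0.35, the regulator Srebf2 at 0.96 ± 0.22 and the decarboxylase Mvd at -1.22 ± 0.24. In the respiratory chain 5 of 42 fell (11.9%, under the 15.6% of all genes) and none rose, with a median of -0.0956. Of 25 genes of the unfolded protein response 6 rose and none fell: Eif2ak3, the stress kinase PERK, rose by 2.0 ± 0.16, and Edem1, which directs misfolded proteins to degradation, by 1.01 ± 0.16. The other Edem1 probe set, at 10.35 in both groups, was at -0.006 and did not pass (adjusted p = 0.986). Of 25 heat shock chaperones 3 rose and 9 fell, with the cytosolic Hspa1b and Dnaja1 up by 1.17 ± 0.20 and 0.86 ± 0.19. The mitochondrial chaperones Hspd1 and Hspa9 fell by 0.54 ± 0.11 and 0.50 ± 0.10. Of 27 lysosome and autophagy genes 10 rose and 2 fell. The autophagy genes Atg12 and Map1lc3b rose by 0.98 ± 0.15 and 0.79 ± 0.11, the cargo receptor Sqstm1 by 0.78 ± 0.13, and the protease Ctsl fell by 1.62 ± 0.28.

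**Figure D3:**
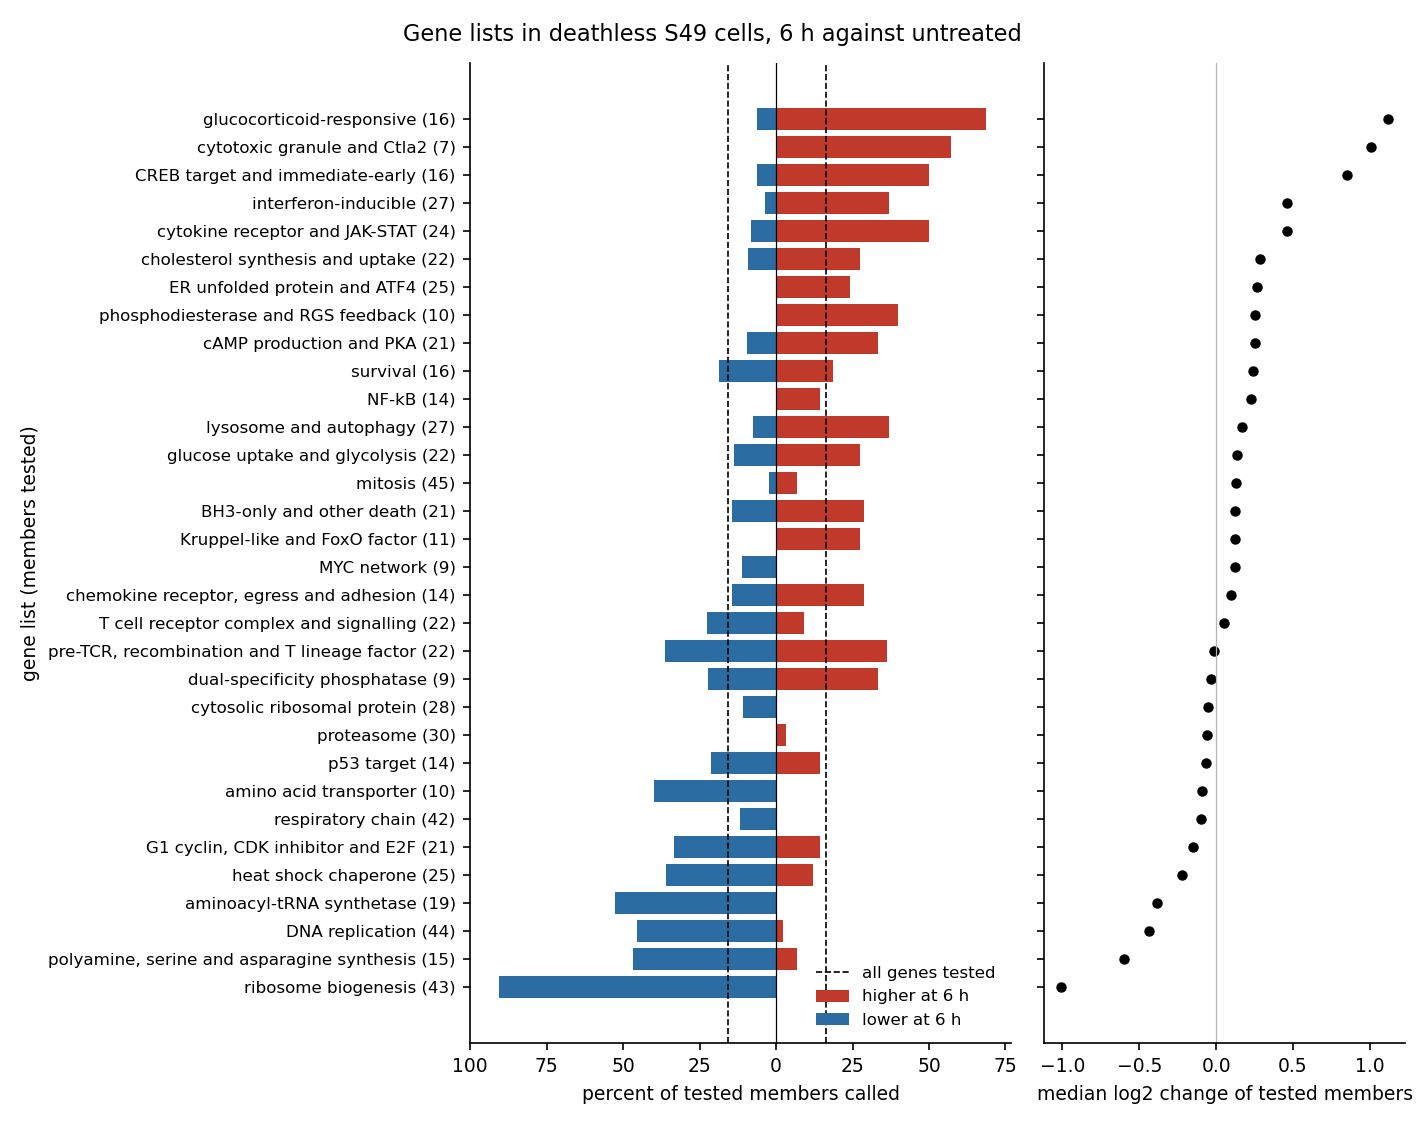
The 32 gene lists are shown with the percent of tested members that rose or fell at 6 h in D- cells and with the median log2 change; the dashed lines give the percent of all 7435 genes that rose (16.2%) or fell (15.6%), and the grey line of the right panel marks a change of 0. Ribosome biogenesis has the largest share of falls (39 of 43) and the lowest median, and the glucocorticoid-responsive list the highest median.

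The response was next set against that of WT cells at the same time, by fitting the difference of the changes (D- minus WT) in 1 model. Of 12724 probe sets 66 (0.519%) differed, 18 of them (0.141%) with the D- change above and 48 (0.377%) with it below, which made 44 genes, 11 and 33 by direction. The count moved with single arrays: it was 110 probe sets without WT 6 h replicate 1, 35 without WT 6 h replicate 2, 43 without WT 6 h replicate 3, and 43 and 42 without D- 6 h replicates 2 and 3. A gene that was not called here was not shown to respond alike in the lines. Gzmb is an example: its difference was 4.52 ± 1.51 and did not pass (adjusted p = 0.363).

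Genes with a D- change above that of WT cells included Palld, an actin-bundling protein, which read 7.25, 6.66, 6.41 and 6.39 and 9.85, 9.49 and 9.11 in D- arrays and 6.48, 6.49, 6.29 and 6.22 and 6.32, 5.99 and 5.83 in WT arrays, a difference of 3.13 ± 0.40 (adjusted p = 0.000197). Chst1, a sulfotransferase, read 4.19, 4.47, 4.22 and 5.28 and 8.99, 8.84 and 9.04 in D- arrays at least 3.96 higher, and stayed under background in all WT arrays of this comparison (adjusted p of the difference = 1.97e-05). The nuclear receptor Nr2f2, the ubiquitin ligase Trim16 and the adaptor Grb7 were likewise under background in all those WT arrays and rose in D- cells by at least 1.71, 2.38 and 1.17. The co-stimulatory ligand Tnfsf4, also under background in both WT groups, rose by at least 1.34 in D- cells, and the tubulin-modifying enzyme Agtpbp1 differed by 1.66 ± 0.22. Ifitm2, an interferon-induced membrane protein, is a different case: it read 1.79, 1.79, 2.01 and 2.08 untreated and 5.24, 5.03 and 4.82 at 6 h in D- arrays, at or under the background level, but 9.74, 9.88, 9.83 and 10.03 and 10.34, 9.58 and 9.92 in WT arrays, so the lines were apart before treatment.

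For 33 of the 44 genes the D- change lay below the WT change. Sgip1, already named among the strongest D- rises, read 4.31, 3.21, 3.9 and 3.22 in untreated WT cells and 11.01, 11.93 and 11.34 at 6 h, so the fitted difference, which passed (adjusted p = 0.00422), rests in part on values under background. Ctla2a, a protease inhibitor of activated lymphocytes, read 4.35, 4.25, 4.85 and 4.54 and 7.12, 5.81 and 5.56 in D- arrays and 5.37, 4.97, 5.86 and 5.2 and 10.13, 10.37 and 9.77 in WT arrays. It rose by 4.74 ± 0.36 in WT and by at least 1.16 in D- cells, where 6 h replicate 1 was the highest array, and the difference passed (adjusted p = 0.00295). The sorting protein Vps37b rose by 1.31 ± 0.31 in D- and 3.44 ± 0.31 in WT cells, a difference of -2.13 ± 0.44. The ceramidase Acer2 read 6.75, 6.28 and 6.64 in D- and 7.96, 9.1 and 8.7 in WT cells at 6 h, with both untreated means under background. Zap70 rose in both lines, by 0.63 ± 0.082 in D- and 1.22 ± 0.082 in WT, and the difference of -0.59 ± 0.12 passed (adjusted p = 0.0163). Arid5a, an RNA-binding regulator of cytokine messages, and Txndc16 rose in both lines too and differed by -1.32 ± 0.29 and -1.24 ± 0.25; the D- change of Txndc16 was 0.48 within the side of 6 h replicate 1. Fbln2, a matrix protein, fell by at least 1.69 in D- cells and lay under background in both WT groups.

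**Figure D4:**
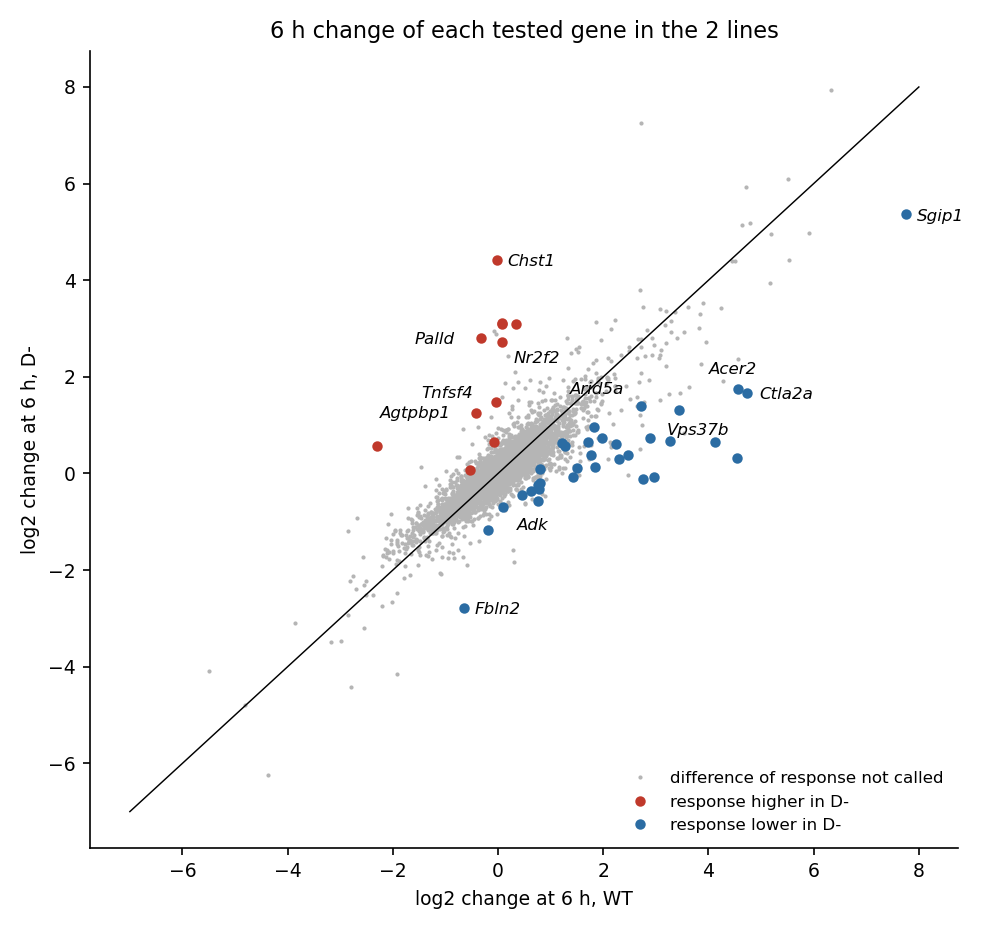
Each point is 1 of 7435 genes, with its fitted log2 change at 6 h in WT cells on the horizontal axis and in D- cells on the vertical axis; the line marks equal change. The 44 genes whose responses differed at a limma adjusted p under 0.05 are coloured, 11 above the line in red and 33 below it in blue, and names mark some of them; fitted values of genes under log2 5 are included.

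Between 2 h and 6 h of treatment 2849 of 12724 probe sets (22.4%) changed in D- cells, 1693 of them (13.3%) upward and 1156 (9.09%) downward. Counted by gene, 14.4% of all tested genes went up and 9.21% went down. The 6 h arrays enter this step and the comparison with untreated cells alike, so the values are given side by side. Early genes were lower at 6 h than at 2 h. Fos read 10.19, 10.2 and 10.53 at 2 h against 7.54, 7.58 and 7.42 at 6 h, a step of -2.79 ± 0.40. Zfp36, which destabilises cytokine messages and at 6 h was 1.49 ± 0.21 above untreated cells, read 10.72, 10.71 and 10.67 at 2 h (-2.37 ± 0.23), and Nr4a1 read 12.34, 13.02 and 12.68 (-2.08 ± 0.31). Of the 16 CREB targets 11 went down in this step and none went up, with a median of -1.14. Crem fell by 1.54 ± 0.53 (adjusted p = 0.0417) and was still at least 3.77 above untreated cells at 6 h.

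Other genes were late. Chst1 was near background at 2 h, at 5.14, 4.79 and 5.94, and went up by 3.67 ± 0.35 between 2 and 6 h. Trim16 and Nr2f2 were still under it, with 2 h arrays of 3.81, 4.06 and 4.02 for Nr2f2, and went up by at least 2.38 and 1.71. Gbp3 read 5.08, 5.24 and 4.81 at 2 h, close to untreated cells, and stepped up by 2.79 ± 0.42, and Tox rose by 3.0 ± 0.46. Of the 43 ribosome biogenesis genes 31 fell in this step, against 9.21% of all genes, with a median step of -0.64 after a median of -0.279 in the first 2 h. Ptcra went on falling, by 1.95 ± 0.51.

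From 6 h to 24 h 1898 probe sets (14.9%) changed, 916 (7.2%) upward and 982 (7.72%) downward, and the downward count was 602 without D- 6 h replicate 3. Counted by gene, 8.1% of all tested genes went up and 8.03% went down. Several thymocyte genes came back. Rag1 read 10.67, 9.98 and 10.52 at 24 h, a return of 2.55 ± 0.28 that left every array below the untreated ones. Dntt read 12.26, 12.36 and 12.61 (2.56 ± 0.23), above all untreated arrays, and Tle6, a Groucho-family corepressor that had fallen by 2.51 ± 0.40, came back by 3.22 ± 0.42. In the list of rearrangement and lineage genes 9 of 22 went up and 1 went down, and in that of the T-cell-receptor complex 8 of 22 went up and none went down.

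Some of the genes raised at 6 h were down again at 24 h. Gbp3 read 5.16, 4.72 and 5.29, close to its untreated readings (-2.78 ± 0.42), and Ramp3 read 4.87, 7.78 and 6.03, widely spread and below its 6 h level (-4.09 ± 0.46). The B cell coactivator Pou2af1, which had risen by 2.52 ± 0.26, changed by -2.5 ± 0.28, and Trim16 by -2.03 ± 0.26. In the ribosome biogenesis list 1 of 43 genes went up and 1 down, with a median step of 0.0659. In this last step 10 of 25 unfolded protein response genes and 8 of 25 heat shock chaperones went down, with medians of -0.393 and -0.33, against 8.03% of all genes.

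**Figure D5:**
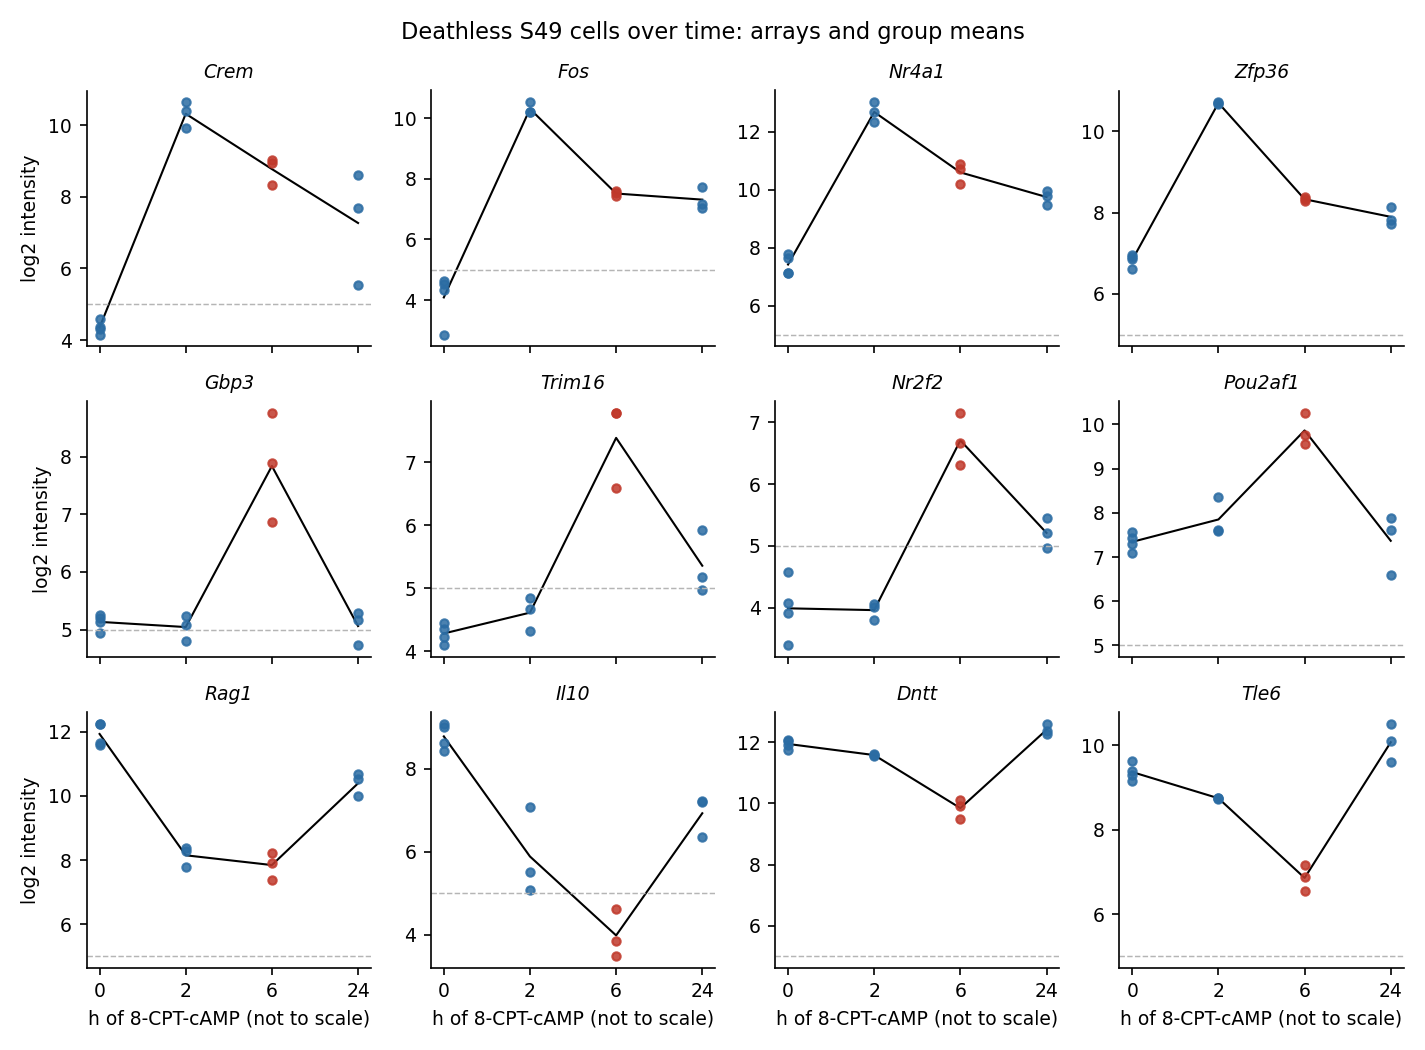
Points are single D- arrays of 12 genes at 0, 2, 6 and 24 h (log2 intensity, times not to scale), lines join group means, red marks the 6 h arrays and the dashed line is log2 5 where it lies in range. The top row holds genes highest at 2 h, the middle row genes highest at 6 h and the bottom row genes lowest at 6 h that were higher again at 24 h.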

How the data were processed

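RNA from 26 S49 samples was hybridised to 1-colour Affymetrix arrays. The deposited table holds GCRMA intensity values on a linear scale (2.0 to 83530.7), normalized by the authors per the submitters' processing notes. No version or setting of GCRMA is given in the sources used here. The log2 of these values was taken, and 64 control probe sets were left out. Gene symbols came from the platform annotation: 20380 probe sets had 1 symbol, 691 several and 1555 none, and only the first kind was named.

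Probe sets with log2 of 5 or more on at least 3 arrays were fitted with limma 3.58.1 (R 4.3.3), with 8 group means (18 residual and 3.34 prior degrees of freedom) and Benjamini-Hochberg adjustment within each contrast. The fit was tested on simulated data. Each array's number limits the precision: 3 or 4 per group. The members and the 32 pathway lists (866 genes) were chosen with earlier results of these data known. Named by rule were the highest and lowest changes at 6 h among called genes whose groups do not overlap, the highest and lowest called values of the line difference and of each time step among genes also called at 6 h, up to 6 called members of each list, and a fixed set of core genes of the response whatever their outcome: 212 genes in all. The full CRE and other motifs were searched in RefSeq promoters (GRCm38.p6). Deviations of same-numbered untreated and 6 h D- replicates correlated at 0.446, -0.28 and 0.148. Pairs on the same side of the split of arrays described above correlated at 0.148 to 0.446. Pairs on different sides correlated at -0.516 to -0.243. That split was drawn from these same deviations, and no pairing was used in the main fit. Alternatives varied the variance model, array weights, normalization, filter, blocks and single arrays.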

Additional observations from a re-analysis of the deposited data

Results flagged for a closer look

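Untreated groups of 4 arrays were tested for a single array far from the other 3, by the ratio of its gap to the group's range. Of 212 named genes 11 were flagged. Chance alone flags about 1 of 20, so the count is close to what chance gives. Replicate 1 stood high in Cd53 (7.668) and in Tox (6.017). Replicate 2 stood apart in Ccnb1ip1 (10.01), E2f8 (10.42) and Olfml3 (6.399). Replicate 3 stood apart in Api5 (12), Gnai2 (11.62), Htra2 (9.539), Klf2 (5.876) and Lmna (3.337, under background like the rest of that group). Replicate 4 stood apart in Ndufs1 (11.87).

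For 17 named genes the 6 h change differed between the D- and WT lines in the fitted difference (limma adjusted p under 0.05). The D- change was above the WT change for Chst1 (4.445), Palld (3.132), Ifitm2 (3.035), Grb7 (3.028), Trim16 (2.768), Nr2f2 (2.649), Agtpbp1 (1.664) and Tnfsf4 (1.509). It was below for Ctla2a (-3.072), Acer2 (-2.8), Sgip1 (-2.4), Fbln2 (-2.144), Vps37b (-2.134), Arid5a (-1.32), Adk (-1.314), Txndc16 (-1.236) and Zap70 (-0.5903). These are fitted values: for Chst1, Ifitm2, Grb7, Trim16, Nr2f2, Tnfsf4, Ctla2a, Acer2, Sgip1 and Fbln2 at least 1 of the 4 group means lay under log2 5, so their size is not a measured difference, and Ifitm2 at 6 h in D- was only 0.028 above that level. Adk, a kinase that clears adenosine, rose by 0.75 in WT and was at -0.56 in D-, and its D- call was lost without untreated replicate 2 or 4 or 6 h replicate 2 or 3 (adjusted p 0.0619 to 0.177).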

How the results depend on the processing

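The 6 h comparison against untreated cells called 3863 probe sets, and the strict rule (adjusted p under 0.01 and 2-fold) left 862. Leaving out single arrays gave 2923 to 3488 (1501 to 1782 higher, 1364 to 1714 lower). Taken within the side of 6 h replicate 1, with 1 array against 2, it gave 837 (479 higher, 358 lower), and within the other side 4321. With the replicate number as a block it gave 4585 (2370 higher, 2215 lower); the numbers were not shown to pair the samples. The line difference (66) was the least settled: 353 with array weights (162 higher, 191 lower), 138 with the side as a block (50 and 88), 30 higher with the replicate block, and 35 to 110 without single arrays (10 to 35 higher, 25 to 75 lower). For 6 h against 2 h, array weights gave 4555 (2106 lower) and the side as a block 1838 lower. For 24 h against 6 h, array weights gave 3106 (1492 higher, 1614 lower), the side as a block 3082 (1432 and 1650), the compared groups alone 1101 (576 and 525), and single arrays left out 602 to 843 lower. The side was drawn from the deviations of these same arrays, so as a block it lowers the spread by construction. Higher counts with that block therefore add no support. The causes of the other shifts were not tested. None of the 206 named genes called at 6 h changed direction, but they were picked by calls on these same arrays. Where the groups do not overlap, no subset of arrays could reverse the direction. Of the named genes not called, Ccnd3 ran from -0.29 to 0.26 and Bcl2 from -0.0046 to 0.54. Values near or under log2 5 have no order, and 3 or 4 arrays per group limit how small a change can pass. Whether the replicates are separate cultures, and the unit of the dose, are not settled by the labels.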
